A study of Mus musculus with 8 samples.

Results

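The dystrophin complex was described in the soleus, a calf muscle rich in slow fibres, through 8 genes: Dmd, Utrn, Dag1, Sgca, Sgcb, Sgcd, Dtna and Sspn. They were taken by symbol from probe sets annotated to exactly 1 gene, each gene had 1 probe set, and all 8 were found among the 19938 genes measured. The arrays came from 4 male Ts65Dn mice and from 4 male wild-type (WT) mice labelled with the strain B6EiC3SnF1/J, whose background mixes B6 and C3H. All were aged 5 months, muscles were taken in the basal state, and 1 Affymetrix array was hybridised per mouse. Ts65Dn mice model Down syndrome through a small extra chromosome that also carries genes of mouse chromosome 17 without a counterpart on human chromosome 21. Of the 8 genes, 0 lie on chromosome 16 or 17, which supply that extra chromosome.

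Dystrophin ties the actin skeleton beneath the muscle membrane to dystroglycan, which binds laminin outside the fibre. Sarcoglycans and sarcospan form a membrane subcomplex beside dystroglycan, while dystrobrevin and the syntrophins dock on the inner side. Utrophin is an autosomal relative of dystrophin that assembles a similar complex. In adult muscle it is concentrated at neuromuscular and myotendinous junctions, it is more widespread in fetal and regenerating fibres, and vascular endothelium also makes it. Loss of dystrophin causes Duchenne muscular dystrophy, and loss of a sarcoglycan causes limb-girdle forms.

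Values are log2 RMA values, the summarised and normalised brightness of a probe set. Arrays differed in spread between the groups. Over all genes the array median was 4.57 to 4.65 in Ts65Dn and 4.72 to 4.86 in WT, and the interquartile range was 2.70 to 2.81 in Ts65Dn and 2.09 to 2.48 in WT, with WT arrays 2 and 3 at 2.23 and 2.09. The median log2 fold change of all genes was -0.10, and that of the 9969 genes above the median level was 0.11. Centring each array on its median turned the balance of calls, to 4.57% of all genes higher and 0.396% lower, against 2.32% and 2.94% with deposited values. Each gene was therefore also given a level-matched value, corrected in each array by how far the 100 genes nearest in mean level deviated there, taken as their median. The muscle label fitted the markers: all 10 fibre markers were measured, with mean levels of 10.05 (Tnni1) to 12.41 (Acta1), and 0 of 10 were called different.

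Utrn was the only one of the 8 genes that passed the test. It stood at 6.28, 5.80, 6.24 and 6.30 in Ts65Dn arrays 1 to 4, against 5.77, 5.06, 4.99 and 5.22 in WT arrays 1 to 4. The groups did not overlap, but Ts65Dn array 2 and WT array 1 lay within 0.031 of each other. Means were 6.15 ± 0.24 in Ts65Dn and 5.26 ± 0.35 in WT (log2, SD, n = 4). Utrn thus rose by 0.89 on the log2 scale (SE 0.19, limma 95% interval 0.48 to 1.31), a fold of 1.86, with a limma adjusted p of 0.0456 over all genes. In whole muscle, more cells that make utrophin and more Utrn RNA per cell cannot be told apart.

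The 1 call among 8 genes stands beside 2.32% of all genes called higher and 2.94% called lower. Of the 9969 genes above the median level, where all 8 lie, 425 were called higher and 253 lower. Groups that did not overlap were found for 6.81% of all genes with Ts65Dn higher and 15.9% with Ts65Dn lower. A log2 fold change at least as large as that of Utrn was held by 433 genes, or 2.17% of those measured. The 100 genes nearest to Utrn in level had a median log2 fold change of 0.03, so its level-matched log2 fold change was 0.87 (SE 0.18). The limma adjusted p of that value was 0.0539. It no longer passed the threshold of 0.05, in a setting where 0.371% of all genes were called higher and 0.0802% lower. The level-matched groups did not overlap either, as for 6.23% of all genes in that direction.

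The size of the Utrn difference held more firmly than its call. Across 19 other ways of processing the log2 fold change was 0.66 to 1.08, positive in all 19 and called in 6, with limma adjusted p-values of 0.022 to 0.213. The call was lost when any 1 Ts65Dn array, or WT array 2 or 3, was left out, and kept without WT array 1 or 4. Without both WT arrays 2 and 3 the log2 fold change was 0.66 and the limma adjusted p 0.213, where 0.00502% of all genes were called higher.

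**Figure D1:**
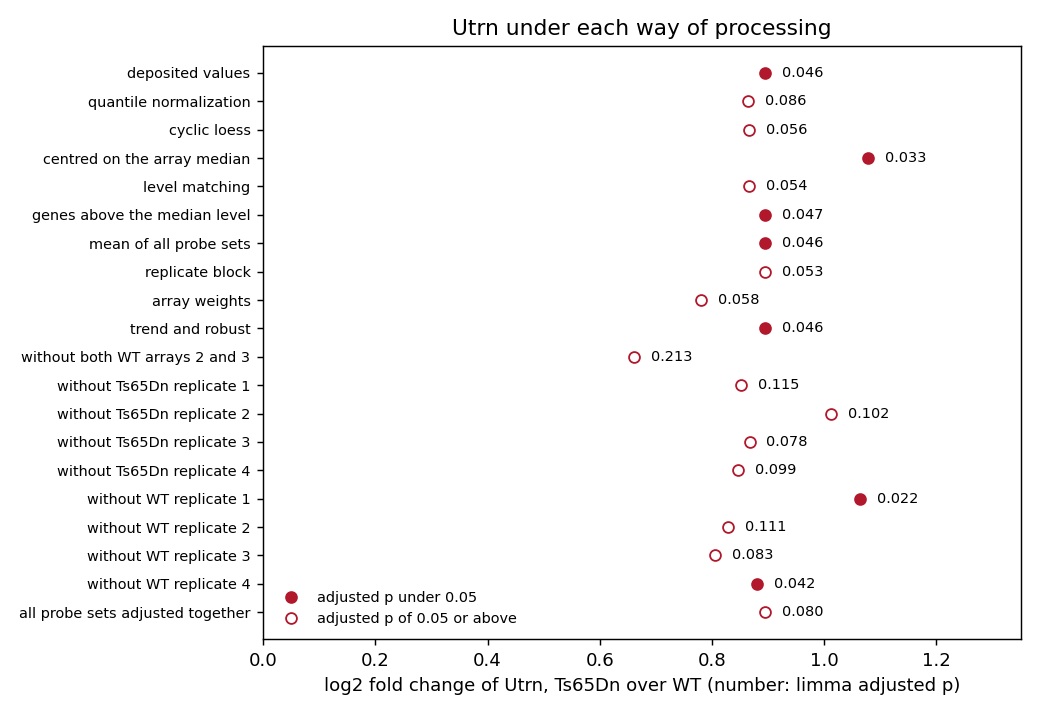
Log2 fold change of Utrn, Ts65Dn over WT (x axis), under the deposited values and 19 other ways of processing (y axis), with the limma adjusted p beside each point. Filled points passed 0.05 and open points did not; every point lies between 0.66 and 1.08.

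Dmd, which encodes dystrophin, differed less. It was at 9.05, 8.93, 8.92 and 8.87 in Ts65Dn arrays 1 to 4, against 8.95, 8.64, 8.32 and 8.54 in WT arrays 1 to 4. WT array 1 lay inside the Ts65Dn range, so the groups overlapped. The log2 fold change was 0.33 (SE 0.14, limma 95% interval 0.02 to 0.65), with an unadjusted p of 0.0396 and a limma adjusted p of 0.127. Genes of its level had a median of 0.25, which left a level-matched value of 0.08 (limma 95% interval -0.19 to 0.35). Dmd passed in 1 of the 19 other settings, without WT array 1 (limma adjusted p = 0.049), where 6.09% of all genes were called higher. The probe set does not separate full-length dystrophin from the short products of internal promoters.

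Utrn and Dmd can also be followed against each other within an array, where only changes between arrays are read. The Utrn value minus the Dmd value was -2.77, -3.13, -2.68 and -2.58 in Ts65Dn arrays 1 to 4, against -3.18, -3.57, -3.33 and -3.32 in WT arrays 1 to 4. All 4 Ts65Dn arrays lay above all 4 WT arrays, with Ts65Dn array 2 closest to the WT range. The mean difference between the groups was 0.56 with deposited values and 0.78 with level-matched values. No test was made of this pair, which was set side by side after the values were known.

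Windows before a RefSeq start of Utrn and Dmd are printed because these relatives bind actin for the complex and only Utrn passed the test. RefSeq windows (GRCm38.p6) were found for 7 of the 8 genes. Those below hold the 250 bases before a start. The Dmd window, chrX:82948620-82948869 on the plus strand, is the upstream one of 2 in the table, lies inside the annotated gene and has the CArG box, a serum response factor motif, in capitals. The Utrn window, chr10:12861736-12861985 on the minus strand, also lies inside its annotated gene and has E boxes, bound by myogenic factors such as MyoD, in capitals.
Dmd: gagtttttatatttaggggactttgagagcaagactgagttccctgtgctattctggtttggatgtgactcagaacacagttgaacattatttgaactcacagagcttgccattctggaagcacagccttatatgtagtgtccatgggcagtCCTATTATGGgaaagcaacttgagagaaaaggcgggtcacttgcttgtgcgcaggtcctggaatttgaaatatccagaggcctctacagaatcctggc
Utrn: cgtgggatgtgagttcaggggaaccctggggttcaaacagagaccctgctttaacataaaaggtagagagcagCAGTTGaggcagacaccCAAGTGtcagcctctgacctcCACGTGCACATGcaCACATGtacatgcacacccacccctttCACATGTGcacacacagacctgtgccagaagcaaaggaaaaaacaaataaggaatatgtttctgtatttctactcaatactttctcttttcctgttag
The Dmd window holds 1 CArG box, which begins 98 bases before the start, a motif held by 1.47% of all 32851 windows on either strand. E boxes (CANNTG, the same on both strands) were in both windows, 7 in that of Utrn, some overlapping each other, and 2 in that of Dmd, which are left in lower case. An E box was held by 66.2% of all windows. The N box (TTCCGG, or CCGGAA on the other strand), through which GABP is known to act on the utrophin promoter in mice, was in neither window and in 12.03% of all windows. These letters describe the windows alone, and other starts of Utrn were not analysed here. The Utrn window was not tested as a promoter, so the missing N box says nothing of the utrophin promoter.

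Dag1 encodes dystroglycan, the laminin receptor at the centre of the complex. Its values were 6.84, 6.85, 6.95 and 6.87 in Ts65Dn arrays 1 to 4, against 6.90, 6.77, 6.20 and 6.61 in WT arrays 1 to 4. The Ts65Dn arrays lay close together, WT array 1 lay within their range, and the other WT arrays lay below it, WT array 3 the farthest. The log2 fold change was 0.26 (SE 0.15, limma adjusted p = 0.239), or 0.12 without WT array 3, and the level-matched value was -0.10.

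The sarcoglycans brace dystroglycan in the membrane, and none of the 3 passed. Sgca, alpha-sarcoglycan, was at 7.35, 7.25, 7.34 and 7.35 in Ts65Dn arrays 1 to 4, against 7.33, 7.33, 7.14 and 7.27 in WT arrays 1 to 4. The groups overlapped, and the log2 fold change was 0.05 (SE 0.11, limma adjusted p = 0.737). Genes at its level had a median of 0.41, which made its level-matched value -0.36 (limma 95% interval -0.63 to -0.09, unadjusted p = 0.014, limma adjusted p = 0.140). On that scale Sgca was at 7.06 to 7.14 in Ts65Dn and 7.27 to 7.69 in WT without overlap, as were 6.55% of all genes in the same direction.

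Sgcb, beta-sarcoglycan, was at 9.05, 9.20, 9.002 and 9.25 in Ts65Dn arrays 1 to 4, against 9.08, 8.94, 8.93 and 8.80 in WT arrays 1 to 4. WT array 1 lay within the Ts65Dn range and the other WT arrays below it. The log2 fold change was 0.19 (limma adjusted p = 0.268) and the level-matched value -0.06. Sgcd, delta-sarcoglycan, was at 8.67, 8.55, 8.51 and 8.71 in Ts65Dn arrays 1 to 4, against 8.49, 7.98, 8.60 and 8.52 in WT arrays 1 to 4. WT array 2 alone lay well below the rest, and the log2 fold change was 0.21 (limma adjusted p = 0.319), or 0.07 without that array.

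Sspn, the tetraspanin-like sarcospan, was at 7.94, 8.22, 8.20 and 7.997 in Ts65Dn arrays 1 to 4, against 7.68, 7.69, 7.43 and 8.13 in WT arrays 1 to 4. WT array 4 lay within the Ts65Dn range and the other WT arrays below it. The log2 fold change was 0.36 (SE 0.16, unadjusted p = 0.046, limma adjusted p = 0.137) and the level-matched value 0.10. Without WT array 4 it was 0.49 and passed (limma adjusted p = 0.049), where 4.39% of all genes were called higher. Dtna, alpha-dystrobrevin, which binds dystrophin and syntrophins, was at 7.87, 8.10, 7.97 and 7.86 in Ts65Dn arrays 1 to 4, against 7.74, 7.75, 7.58 and 7.88 in WT arrays 1 to 4. WT array 4 lay within the Ts65Dn range and the other WT arrays below it. Its log2 fold change was 0.21 (SE 0.12, limma adjusted p = 0.215), and its level-matched value was -0.14.

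**Figure D2:**
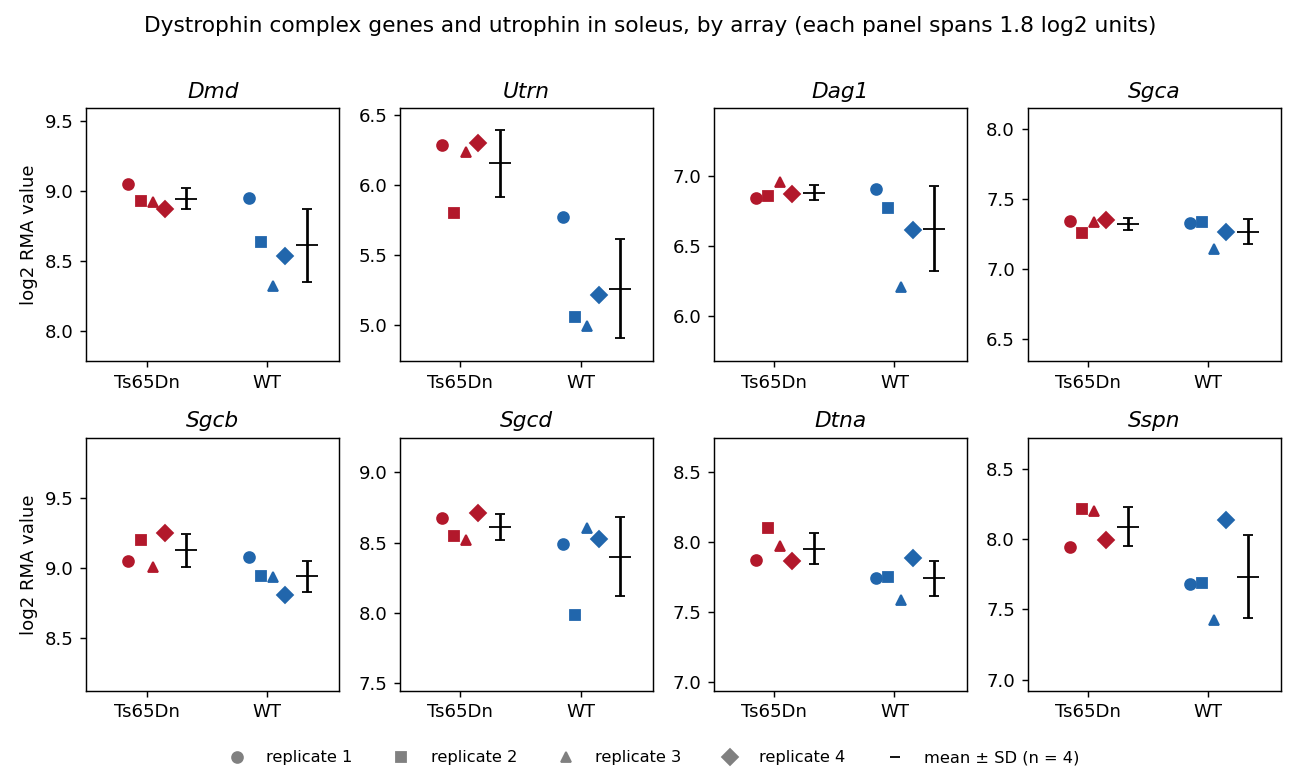
Log2 RMA values (y axis) of the 8 genes in each array, Ts65Dn left and WT right, with mean and SD (n = 4) as black bars. Utrn is the 1 gene whose groups do not overlap, and WT replicate 3 (triangle) is the lowest WT array for 6 of the 8 genes.

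All 8 genes had a positive log2 fold change, with a median of 0.24, where 39.2% of all genes were positive. All 8 lie above the median level of all genes, where 60.7% of 9969 genes were positive. An unadjusted p under 0.05 was reached by 3 of the 8 (Utrn, Sspn and Dmd), all higher, against 12.3% of all genes higher and 22.6% lower. Of the 9969 genes above the median level, 2238 were higher and 1530 lower by that measure. With level-matched values 3 of the 8 were positive, with a median of -0.05, where 50.1% of all genes were positive. On that scale limma called 0 of the 8, and 2 had an unadjusted p under 0.05, Utrn higher and Sgca lower, against 11.4% of all genes higher and 9.51% lower. Dag1, Sgca, Sgcb, Sgcd and Dtna turned negative under level matching and quantile normalization and had no settled direction. Dmd and Sspn stayed positive, at 0.08 and 0.10 when level-matched and 0.11 and 0.07 after quantile normalization.

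The low WT values of the 8 genes often came from the same array. WT array 3, the array of narrowest spread, was the lowest WT array for 6 of the 8 genes, and WT array 1 the highest for 4. With level-matched values WT array 3 was the lowest for 0 of the 8. The mean deviation of the 7 genes other than Utrn was 0.09 to 0.14 in Ts65Dn arrays and -0.27 to 0.01 in WT arrays. With level-matched values it was -0.05 to -0.02 in Ts65Dn and -0.09 to 0.17 in WT, where the groups overlapped.

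**Figure D3:**
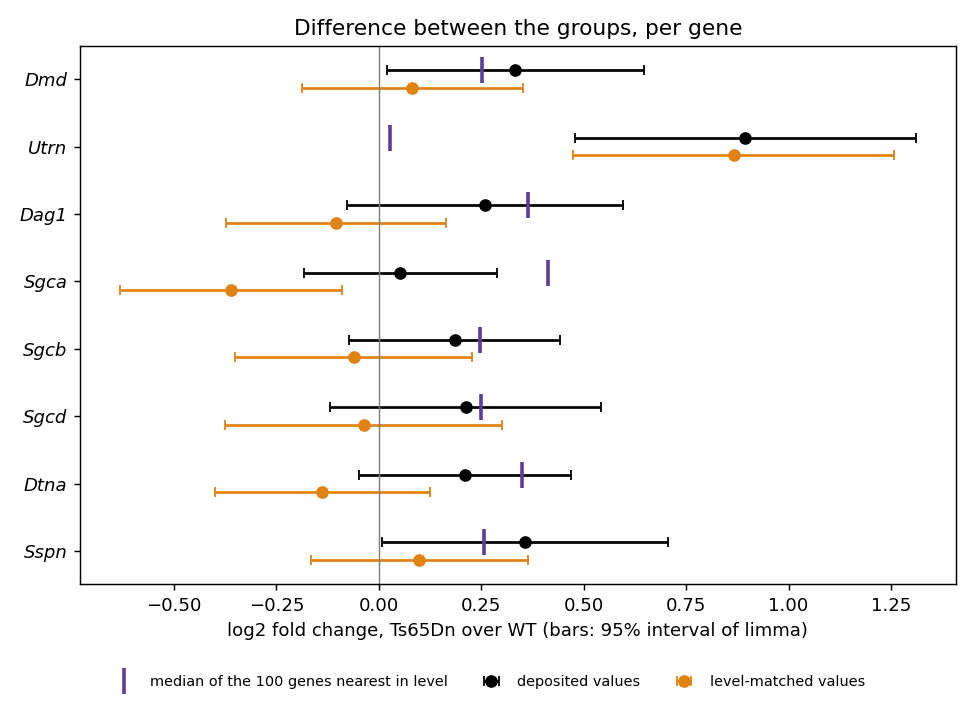
Log2 fold change of each gene, Ts65Dn over WT (x axis), with deposited values (black) and level-matched values (orange); bars are limma 95% intervals and purple ticks the median of the 100 genes nearest in level. Utrn lies far right of its tick (0.89 beside 0.03), and the other 7 genes lie nearer to theirs.

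Some markers of other cells in the muscle were called higher beside Utrn. Of 7 endothelial markers 2 were called higher, the VEGF receptor Kdr (log2 fold change 0.99, limma adjusted p = 0.0449) and the sialomucin Emcn (1.18, limma adjusted p = 0.0456), beside 2.32% of all genes. The other 5 did not pass, with Tek at 0.74, Pecam1 at 0.58, Cdh5 at 0.54, Tie1 at -0.04 and Cldn5 at -0.30. Emcn was at 0.73 without WT arrays 2 and 3, while Kdr was at 1.03. The summed level of the 7 endothelial markers, as log2 of the sum, was 8.77 to 9.13 in Ts65Dn and 8.11 to 8.62 in WT. These ranges did not overlap, as for 6.81% of all genes taken singly with Ts65Dn higher. By this sum the 8 arrays fell in the same order as by Utrn. That order held for 1 of the 7 marker lists and for 16 of the other 19937 genes, taken singly. Within WT it was also the order of the interquartile range, from 2.482 in WT array 1 to 2.09 in WT array 3. Within Ts65Dn these 2 orders differed. The marker sums were not level-matched. Singly, Kdr was at 1.27 when level-matched and passed (limma adjusted p = 0.016), where 0.371% of all genes were called higher. Emcn was at 1.13 when level-matched and did not pass (limma adjusted p = 0.056). Kdr was the dimmest of the 7, at a mean level of 4.72. The part of endothelium in the Utrn difference was not tested.

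Of 6 fibroblast markers 1, Pdgfra (0.62), was called higher, beside 2.32% of all genes. When level-matched it was at 0.76 and passed (limma adjusted p = 0.045), where 0.371% of all genes were called higher. The others did not pass, with Lum at 1.02, Dpt at 0.54, Dcn at 0.35, Col3a1 at -0.06 and Col1a1 at -0.35. The summed level of the 6 was 10.90 to 11.22 in Ts65Dn and 10.39 to 11.02 in WT. Of 7 macrophage markers 1, Cd68 (2.39), was called higher, beside 2.32% of all genes. When level-matched Cd68 was at 2.10 and did not pass (limma adjusted p = 0.091). Sums were 7.93 to 9.68 in Ts65Dn and 7.53 to 7.79 in WT, without overlap, as for 6.81% of all genes taken singly. Each sum adds values off the log2 scale, so bright markers weigh most, and Cd68 was the brightest (mean level 6.53). The sum without Cd68 was not analysed here. The other 6 macrophage markers did not pass, with log2 fold changes of -0.09 (C1qa) to 0.31 (Mrc1). By limma 0 of 6 smooth muscle, 0 of 4 Schwann cell and 0 of 5 adipocyte markers were called. At an unadjusted p under 0.05 were 2, 2 and 1, beside 12.3% of all genes higher and 22.6% lower. The smooth muscle and Schwann cell lists each had 1 higher and 1 lower, and the adipocyte list 1 lower. The sums of these 3 lists overlapped between the groups, as did that of the fibroblast markers and that of the fibre markers, at 15.00 to 15.15 in Ts65Dn and 14.93 to 15.10 in WT. Log2 array values have no true zero, and the dimmest marker of all lists was Adgre1, at a mean level of 3.61.

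**Figure D4:**
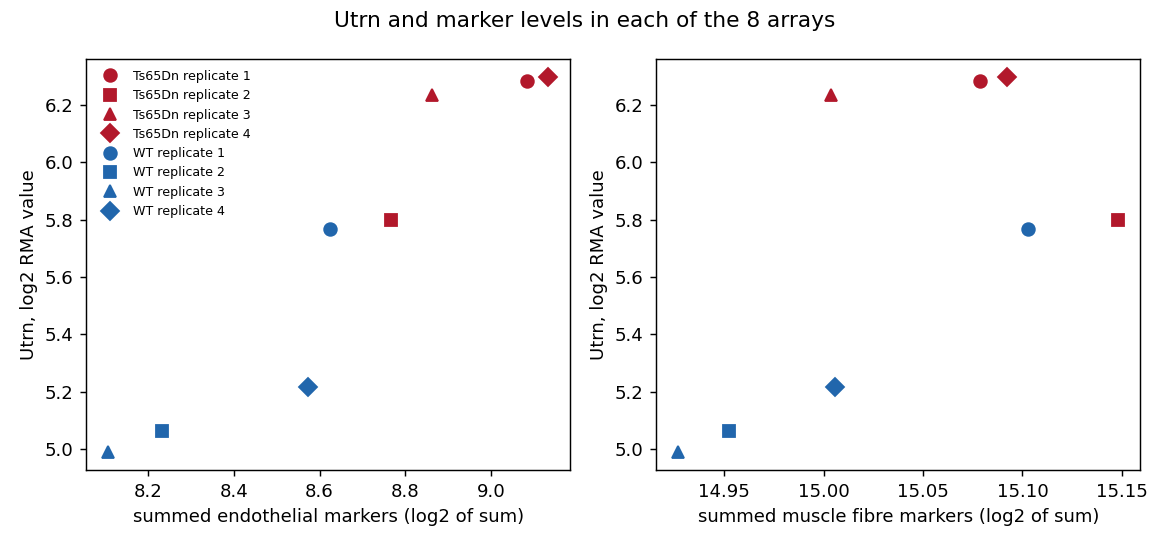
Utrn (y axis, log2 RMA value) in each of the 8 arrays against the summed level of 7 endothelial markers (left) and 10 muscle fibre markers (right), as log2 of the sum; red is Ts65Dn and blue WT. The endothelial sum orders the arrays as Utrn does, and the fibre sum overlaps between the groups.

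The other genes of the complex and its surroundings were taken from 8 lists. Of 99 listed genes 91 were measured, 9 were called higher and 0 lower, beside 2.32% and 2.94% of all genes. Their median log2 fold change was 0.18, beside -0.10 for all genes and 0.11 for the 9969 genes above the median level. Most of the 91 lie above that level, where 425 genes were called higher and 253 lower. The level-matched median of the 91 was 0.10, beside 0.0006 for all genes. With level-matched values limma called 1 of the 91 (Lama4), beside 0.371% of all genes higher and 0.0802% lower. On that scale 28 of the 91 had an unadjusted p under 0.05, beside 11.4% of all genes higher and 9.51% lower. Without both WT arrays 2 and 3 limma called 0 of the 91, beside 1 of all 19938 genes. There 25 of the 91 had an unadjusted p under 0.05, beside 3351 of all 19938 genes.

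Outside the fibre, 3 of 16 laminins and other matrix ligands were called higher and 0 lower, beside 2.32% and 2.94% of all genes. The list median was -0.05, or 0.03 when level-matched. Bgn encodes biglycan, a proteoglycan that binds dystroglycan and helps to hold utrophin at the membrane in mice. It was at 6.88, 6.54, 7.09 and 7.86 in Ts65Dn arrays 1 to 4, against 6.13, 5.62, 5.46 and 6.24 in WT arrays 1 to 4. All 4 Ts65Dn arrays lay above the WT range, as for 6.81% of all genes. The log2 fold change was 1.23 (SE 0.27, limma adjusted p = 0.0456). Lamc1, the gamma-1 chain shared by most laminins, was at 7.43, 7.29, 7.13 and 7.69 in Ts65Dn, against 6.64, 6.28, 6.18 and 6.43 in WT, and rose by 1.002 (limma adjusted p = 0.0456), or 0.64 when level-matched. Lama4, the laminin chain of vessel basement membranes, rose by 0.68 and by 0.96 when level-matched (limma adjusted p = 0.0448), and was the 1 pathway gene called on both scales. Lama2, the alpha-2 chain of muscle laminin, had a log2 fold change of 0.56 that did not pass (limma adjusted p = 0.055). Of the 16, 9 were negative. Lower at an unadjusted p under 0.05 were 22.6% of all genes and, without passing, 3 of these 9. They were Agrn, or agrin, which clusters acetylcholine receptors (-0.42), the basement membrane collagen chain Col4a2 (-0.43) and the laminin chain Lama5 (-0.30, and 0.01 when level-matched).

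Of 13 measured enzymes that build the laminin-binding sugars of dystroglycan, limma called 0. At an unadjusted p under 0.05 were 12.3% of all genes higher, 22.6% lower, and 3 of the 13 enzymes. These were B3galnt2 (0.57), which adds a sugar to the core chain, Dolk (0.46), which makes a lipid sugar carrier, and Pomgnt2 (-0.48), which extends the chain. Dpm2, of the mannose donor synthase, was at 0.22. The list median was 0.15, beside 0.10 when level-matched.

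Of 2 measured further sarcoglycans limma called 0, with 0 at an unadjusted p under 0.05. Sgce, the epsilon form, had a log2 fold change of 0.34, and Sgcz, the zeta form, one of -0.23. Of 11 partners of dystrobrevin and syntrophin 1 was called higher, beside 2.32% of all genes. This was Mast2, a kinase that binds syntrophin. It was at 7.94, 7.94, 8.03 and 7.81 in Ts65Dn, against 7.55, 7.46, 7.26 and 7.36 in WT, and rose by 0.52, or 0.22 when level-matched. The potassium channel Kcnj10 (-0.54), beta-dystrobrevin Dtnb (-0.24) and gamma-1-syntrophin Sntg1 (-0.26) did not pass. For all 3 the Ts65Dn arrays lay below the WT range, as for 15.9% of all genes. All 3 lie below the median level of all genes, 4.72, at mean levels of 4.03, 4.07 and 3.27. When level-matched they were at -0.25, 0.04 and -0.06, and their groups overlapped. The list median was -0.24, beside -0.03 when level-matched.

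Of 13 cytoskeletal links of dystrophin 1 was called higher, beside 2.32% of all genes. This was Ank3, or ankyrin-G, which helps to keep dystrophin at the membrane. It was at 7.51, 7.60, 7.48 and 7.47 in Ts65Dn, against 7.24, 6.51, 6.43 and 6.70 in WT, and rose by 0.80, or 0.43 when level-matched. The tubulin Tubb6 (0.58), the kinesin Kif5b (0.66) and the intermediate filament desmin, Des (0.32), did not pass, although for all 3 the Ts65Dn arrays lay above the WT range, as for 6.81% of all genes. Kif5b was at 0.40 without WT array 3. The list median was 0.29, beside 0.11 when level-matched.

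The integrin link is the other laminin receptor system of the fibre, and 2 of its 15 genes were called higher, beside 2.32% of all genes. Vcl, the actin-binding vinculin, was at 6.84, 6.82, 6.39 and 6.87 in Ts65Dn, against 6.56, 5.18, 5.42 and 5.56 in WT. WT array 1 lay within the Ts65Dn range. The log2 fold change was 1.05 (SE 0.26, limma adjusted p = 0.0489), and 0.67 without WT arrays 2 and 3. Cd151, a tetraspanin bound to laminin-binding integrins, rose by 0.72 (limma adjusted p = 0.0495), which was 0.41 when level-matched and 0.45 without WT arrays 2 and 3. Flnc, filamin C, an actin crosslinker that binds sarcoglycans (0.95, limma adjusted p = 0.052), and the integrin chain Itgb1 (0.71, limma adjusted p = 0.070) did not pass. Itgb1 was at 0.45 without WT array 3. It passed without WT array 1 (0.87, limma adjusted p = 0.039), where 6.09% of all genes were called higher. The list median was 0.36, beside 0.35 when level-matched.

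Regulators linked to utrophin formed a list of 11, of which 1 was called higher, beside 2.32% of all genes. The RNA-binding protein gene Elavl1 rose by 0.94 (limma adjusted p = 0.047), or 0.57 when level-matched. Gabpa and Ets2, factors of the ETS family that act on the utrophin promoter in mice, lie in the segment of chromosome 16 that Ts65Dn mice carry as an extra copy. Gabpa was at 9.03, 9.24, 9.16 and 9.20 in Ts65Dn, against 8.68, 8.36, 7.38 and 8.89 in WT, a log2 fold change of 0.83 that did not pass (limma adjusted p = 0.0732). Ets2 was at 7.03, 6.56, 6.64 and 6.77 in Ts65Dn, against 6.30, 5.53, 4.66 and 6.16 in WT, a log2 fold change of 1.09 that did not pass (limma adjusted p = 0.0569). For both genes the groups did not overlap, as for 6.81% of all genes with Ts65Dn higher, and WT array 3 was lowest. Without that array Gabpa was at 0.51 and Ets2 at 0.76, and without WT arrays 2 and 3 they were at 0.37 and 0.52. Without WT array 4 both passed (limma adjusted p = 0.044 for Gabpa and 0.043 for Ets2), where 4.39% of all genes were called higher. Ets2 also passed without WT array 1 (limma adjusted p = 0.035), where 6.09% of all genes were called higher. When level-matched, Gabpa was at 0.57 (limma adjusted p = 0.146) and Ets2 at 0.91 (limma adjusted p = 0.108). Mbnl1, a splicing regulator, was at 0.36 (limma adjusted p = 0.132).

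**Figure D5:**
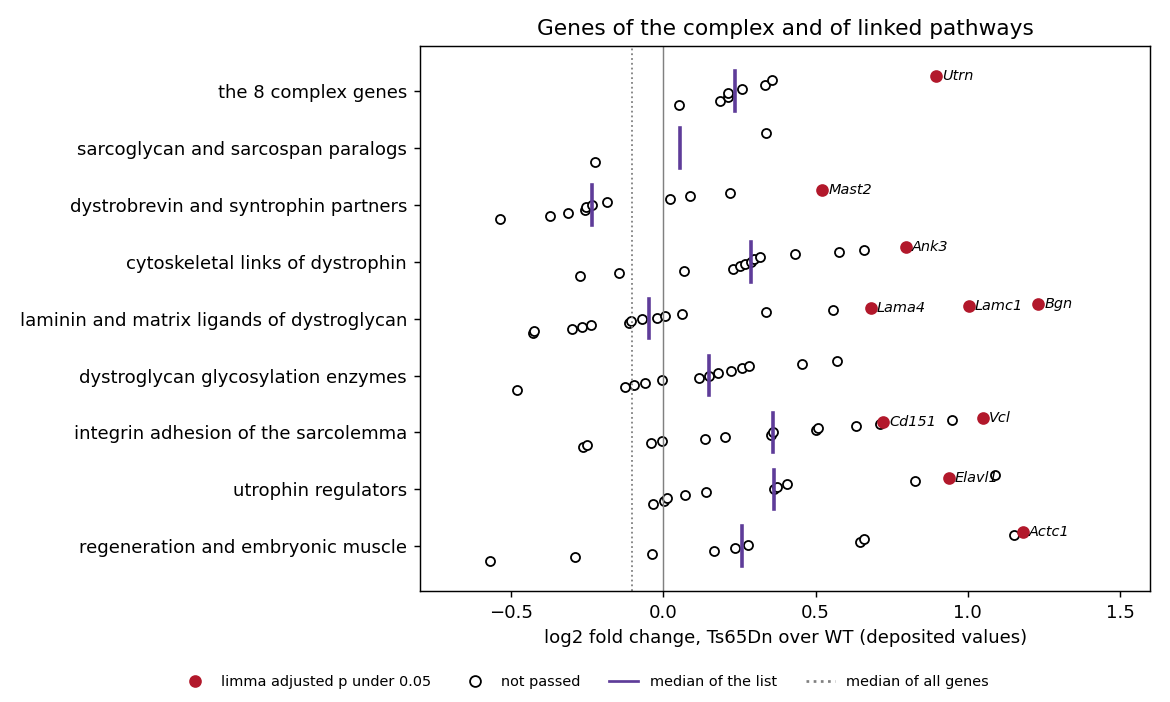
Log2 fold change of each measured gene, Ts65Dn over WT (x axis), by list (y axis); filled red points passed a limma adjusted p of 0.05 and are named, open points did not, purple bars are list medians and the dotted line the median of all genes (-0.10). Utrn and 9 genes of the other lists are filled, all on the positive side.

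Genes whose values followed Dmd and Utrn most closely over the 8 arrays were found by Pearson correlation among 9968 genes above the median level. For Utrn these were Atxn2l, Ipp, Adam9, Uaca and Gart, with r of 0.978 to 0.987, and their log2 fold changes were 0.30 to 0.89. For Dmd they were Ptprb, Copb1, Chd9, Helz and Slc30a6, with r of 0.982 to 0.992 and log2 fold changes of 0.35 to 0.84. Among the other 7 genes of the complex, r with Utrn was highest for Dmd (0.87) and lowest for Sgcd (0.55). With Dmd it was highest for Dag1 (0.90) and lowest for Sgcd (0.24). All values come from the same 8 arrays, whose groups and spread they share, and r is a description.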

How the data were processed

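The values the authors deposited are log2 values per probe set, as their range shows. Expression Console 1.1 from Affymetrix and RMA (background correction, normalization between arrays, summary per probe set) are named in the submitters' processing notes. No build is given in the sources used here, and scanner files were not analysed here.

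Of 35556 probe sets, 21789 have 1 symbol, and symbols were updated through Entrez with the RefSeq table of GRCm38.p6. The probe set of highest mean was kept per gene, which left 19938 genes. The test was limma's (version 3.58.1, R 4.3.3; lmFit, eBayes), two-sided and without block or covariate. P-values were adjusted by Benjamini-Hochberg over the 19938 genes, and 0.05 was the threshold. With 4 arrays per group, their number limits the precision. The fit was checked on simulated data with 200 of 19938 genes changed. It recovered 70% of log2 changes of 1 and 96% of those of 2, and 7.78% of calls were false. The simulated arrays did not differ in spread as the deposited ones do, so the check does not cover that difference. Python 3.11.15, pandas 2.3.3 and matplotlib 3.10.9 made tables and plots.

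The 8 genes and the 8 pathway and 7 marker lists were chosen with earlier results of these data known. Named genes are the 8, up to 4 of each pathway list with the smallest p, the 5 most like Dmd and Utrn, and Gabpa and Ets2. Markers are given by list, and those named by value, like Agrn, Col4a2 and Lama5, were named after their values were seen. Listed genes without a probe set of their own were not analysed here. Same-numbered arrays correlated at 0.012 to 0.091 in their deviations from the group mean, and other pairs at -0.119 to 0.089. Whether same-numbered mice were paired cannot be told from these values. Alternatives were quantile normalization, cyclic loess, centring, level matching, genes above the median level alone, probe sets averaged per gene, the replicate block, array weights, trend with robust estimation, adjustment over all probe sets, and leaving out arrays.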

Additional observations from a re-analysis of the deposited data

Results flagged for a closer look

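An array far from the 3 others of its group was found in 4 of the 96 groups of 4 arrays tested for 48 named genes, and chance flags about 1 group in 20. For the 8 complex genes it was found in 2 of 16 groups, in Ts65Dn array 2 for both. Utrn was at 5.80 in that array, against 6.24 to 6.30 in the other Ts65Dn arrays, and without it the log2 fold change was 1.01 (limma adjusted p = 0.102). Sgca was at 7.25 in that array, against 7.34 to 7.35 in the others. Vcl was at 6.39 in Ts65Dn array 3, against 6.82 to 6.87 in the others. Atxn2l was at 6.10 in WT array 1, against 5.38 to 5.49 in the other WT arrays.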

How the results depend on the processing

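Limma adjusted p-values of Utrn and of the called pathway genes were 0.0456 to 0.0495. Benjamini-Hochberg gave Utrn and Lamc1 the same 0.0456, from unadjusted limma p-values of 0.00066 and 4.9e-05. Equal adjusted p-values here thus do not mean equal evidence, and genes tied in this way pass or fail together. Counts of calls moved with most settings, and the cause was not tested. Limma called 1 of the 8 complex genes, 9 pathway genes and, of all genes, 462 higher and 587 lower. The counts were 0, 0 and 0 with quantile normalization (4369 genes at an unadjusted p under 0.05), 0, 2 and 142 with cyclic loess, 0, 1 and 90 with level matching, 0, 1 and 236 with array weights, 0, 0 and 1 without both WT arrays 2 and 3, and 0, 0 and 1 with all probe sets adjusted together. Centring gave 14 pathway calls and 911 higher and 79 lower calls over all genes, and the filter on dim genes gave 436 calls. Leaving out 1 array gave 0 to 2, 0 to 15 and 0 to 2865, with counts above 1 over all genes only without WT array 1 (2865) or 4 (2422). With the replicate block the counts were 0, 0 and 0, with 2, 36 and 7014 at an unadjusted p under 0.05, and Utrn had an adjusted p of 0.053. By correlation, 2 of 4 Ts65Dn arrays and 2 of 4 WT arrays were closest to their own number, which does not settle whether they were paired.

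Log2 fold changes that turned sign were, under quantile normalization, cyclic loess and level matching in that order, -0.29, -0.23 and -0.36 for Sgca, -0.023, -0.028 and -0.061 for Sgcb, -0.041, -0.031 and -0.037 for Sgcd, -0.084, -0.065 and -0.14 for Dtna, and 9.28e-05, 0.060 and 0.040 for Dtnb. Dag1 was at -0.050 with quantile normalization and -0.10 with level matching. Sgcz was at 0.0081 with cyclic loess and 0.013 with level matching.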

Other observations

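Genes of fetal and regenerating fibres, in which utrophin is known to be widespread, were a list of 10. Of these 1 was called higher and 0 lower, beside 2.32% and 2.94% of all genes. Actc1, the cardiac actin also made in fetal muscle, was at 9.69, 10.39, 9.41 and 9.68 in Ts65Dn, against 8.69, 8.40, 8.15 and 9.21 in WT. All 4 Ts65Dn arrays lay above the WT range, as for 6.81% of all genes. The log2 fold change was 1.18 (limma adjusted p = 0.0456). Sln, sarcolipin, an inhibitor of the calcium pump, did not pass at 1.15 on the log2 scale (limma adjusted p = 0.053), nor did the embryonic myosin Myh3 at 0.64 (limma adjusted p = 0.082). Chrng, the fetal subunit of the acetylcholine receptor, was at -0.57 (limma adjusted p = 0.063). The list median was 0.26, and 0.19 when level-matched.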
